A study of Mus musculus with 16 samples.

Results

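The transcription factor p53 and a set of its target genes were followed across stem cells and lymphoid progenitors of mouse bone marrow. The set comprised 10 genes, Trp53 itself and the targets Mdm2, Plk2, Perp, Bbc3, Bax, Ccng1, Trp53inp1, Zmat3 and Pmaip1. The array annotation lists a probe set for 8 of the 10 genes, with 14 probe sets between them, among 18194 genes in all. Trp53 and Bax are not named there and were not analysed here. A gene with several probe sets was represented by the one with the highest mean over the 16 arrays.

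The study measured RNA of sorted bone marrow cells on 16 Affymetrix mouse arrays in 6 groups, to set haematopoietic stem cells (HSC) of mid-aged mutator mice beside those of normal ageing. Old HSC came from wild-type mice of 24 months (n = 3). Mutator HSC came from mice of 32 weeks with the genotype Polgtm1Lrsn-/- (n = 3), and mid-aged WT HSC from Polgtm1Lrsn+/+ mice of 32 weeks (n = 3). Ly6D+ and Ly6D- common lymphoid progenitors (CLP) came from wild-type mice of 8 to 12 weeks (n = 2 each), and young HSC from wild-type mice of 9 to 12 weeks (n = 3). Every sample is labelled C57Bl6, female and bone marrow, and replicates are labelled biological. Polg encodes the polymerase that copies mitochondrial DNA, and mice with a proofreading-deficient Polg accumulate mitochondrial mutations in every tissue, so the genotype is not confined to blood. Each array was made from 4000 to 7000 cells, and the number of arrays limits the precision.

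In unstressed cells p53 is kept low by the ubiquitin ligase Mdm2. After DNA damage or other stress it accumulates, binds its sites near target genes and raises transcripts that halt the cell cycle, repair DNA or trigger death. In blood stem cells p53 is known to hold cells in quiescence and to set how they respond to irradiation. Each target also answers to other regulators, and a target's transcript level alone is no measure of p53 activity.

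Promoter sequences were set out because the members share p53 as a regulator. The RefSeq table (GRCm38.p6) held the 250 bases before the transcript start for 4 of the genes with a probe set, Mdm2, Plk2, Bbc3 and Ccng1, with 6 starts in all. They were searched for the p53 half-site, whose pattern is its own reverse complement, so that 1 pass covers both strands. Mdm2 and Ccng1 held 1 match each, printed in capitals, and Plk2 and the 3 starts of Bbc3 held none. Of 32851 promoters of this length 2341, or 7.13%, held a match, and a match of letters is not a site shown to bind. Bases outside these windows were not searched, so a window without a match does not show that a gene lacks a site. Plk2 is shown beside the others because it had the largest change with age among the tested targets.
Mdm2 (chr10:117710759-117711008, minus strand, match begins at -186): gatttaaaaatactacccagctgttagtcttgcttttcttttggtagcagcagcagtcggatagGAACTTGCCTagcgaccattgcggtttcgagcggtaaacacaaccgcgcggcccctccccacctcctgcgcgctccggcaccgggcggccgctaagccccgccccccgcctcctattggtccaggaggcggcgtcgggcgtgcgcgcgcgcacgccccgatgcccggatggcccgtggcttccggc
Ccng1 (chr11:40755287-40755536, minus strand, match begins at -185): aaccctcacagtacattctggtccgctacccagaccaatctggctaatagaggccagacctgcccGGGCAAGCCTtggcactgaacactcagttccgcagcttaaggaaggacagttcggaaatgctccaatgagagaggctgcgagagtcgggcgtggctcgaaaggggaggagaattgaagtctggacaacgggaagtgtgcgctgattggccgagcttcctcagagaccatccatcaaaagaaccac
Plk2 (chr13:110394794-110395043, plus strand, no match): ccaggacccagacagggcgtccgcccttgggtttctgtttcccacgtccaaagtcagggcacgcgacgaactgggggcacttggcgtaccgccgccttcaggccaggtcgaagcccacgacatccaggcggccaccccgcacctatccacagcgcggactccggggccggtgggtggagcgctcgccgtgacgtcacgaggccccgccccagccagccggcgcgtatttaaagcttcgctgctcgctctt

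Values are deposited probe set intensities, and changes are on the scale of log2(intensity + 16), which understates the change of dim genes. A gene was tested with limma where enough arrays had its probe set over their own 40th percentile, an intensity of 16.6 to 21.3, and it was called at a Benjamini-Hochberg adjusted p under 0.05 over all genes tested. Of the 8 genes, 7 entered the tests. Pmaip1 (chromosome 18), which encodes the death-promoting protein Noxa, stayed below that percentile on all 16 arrays, between 5.75 and 16.3, and was not tested.

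Some arrays stood apart or went against a label. Xist, transcribed from the inactive X of female cells, lay between 9.12 and 16.8 on 5 arrays labelled female, mid-aged WT replicate 3 and all 4 CLP arrays, against 3507 to 11022 on the other 11. The Y-linked Eif2s3y lay at 423.3 to 757.9 on those 5 arrays and at 6.85 to 12.7 on the others. Young replicates 2 and 3 correlated at 0.996 over all probe sets, against 0.94 to 0.991 for the other replicate pairs. Actin signal from the 3 prime end over that from the 5 prime end, which rises as RNA is shortened, was on the log2 scale 2.20 to 2.27 in old HSC, 4.74 to 5.25 in mutator HSC, 4.24 to 5.26 in mid-aged WT HSC, 2.11 to 3.85 in CLP and 2.39 to 2.61 in young HSC. Summed intensity of 10 lymphoid progenitor markers was 11948 to 31455 in CLP, against 153.2 to 382.0 in HSC. That of 10 HSC markers was 5371 to 9801 in CLP, 8134 to 10365 in mutator and mid-aged WT HSC, 15607 to 19468 in old HSC and 12056 to 13913 in young HSC. Gene by gene, 8 of these 10 markers were called lower in CLP than in young HSC and 1 higher. Of all genes tested 18.2% were called lower and 12.5% higher. The median log2 change of the 10 markers was -3.65 and the highest 4.71, so the sum does not show how most of them differed.

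**Figure D1:**
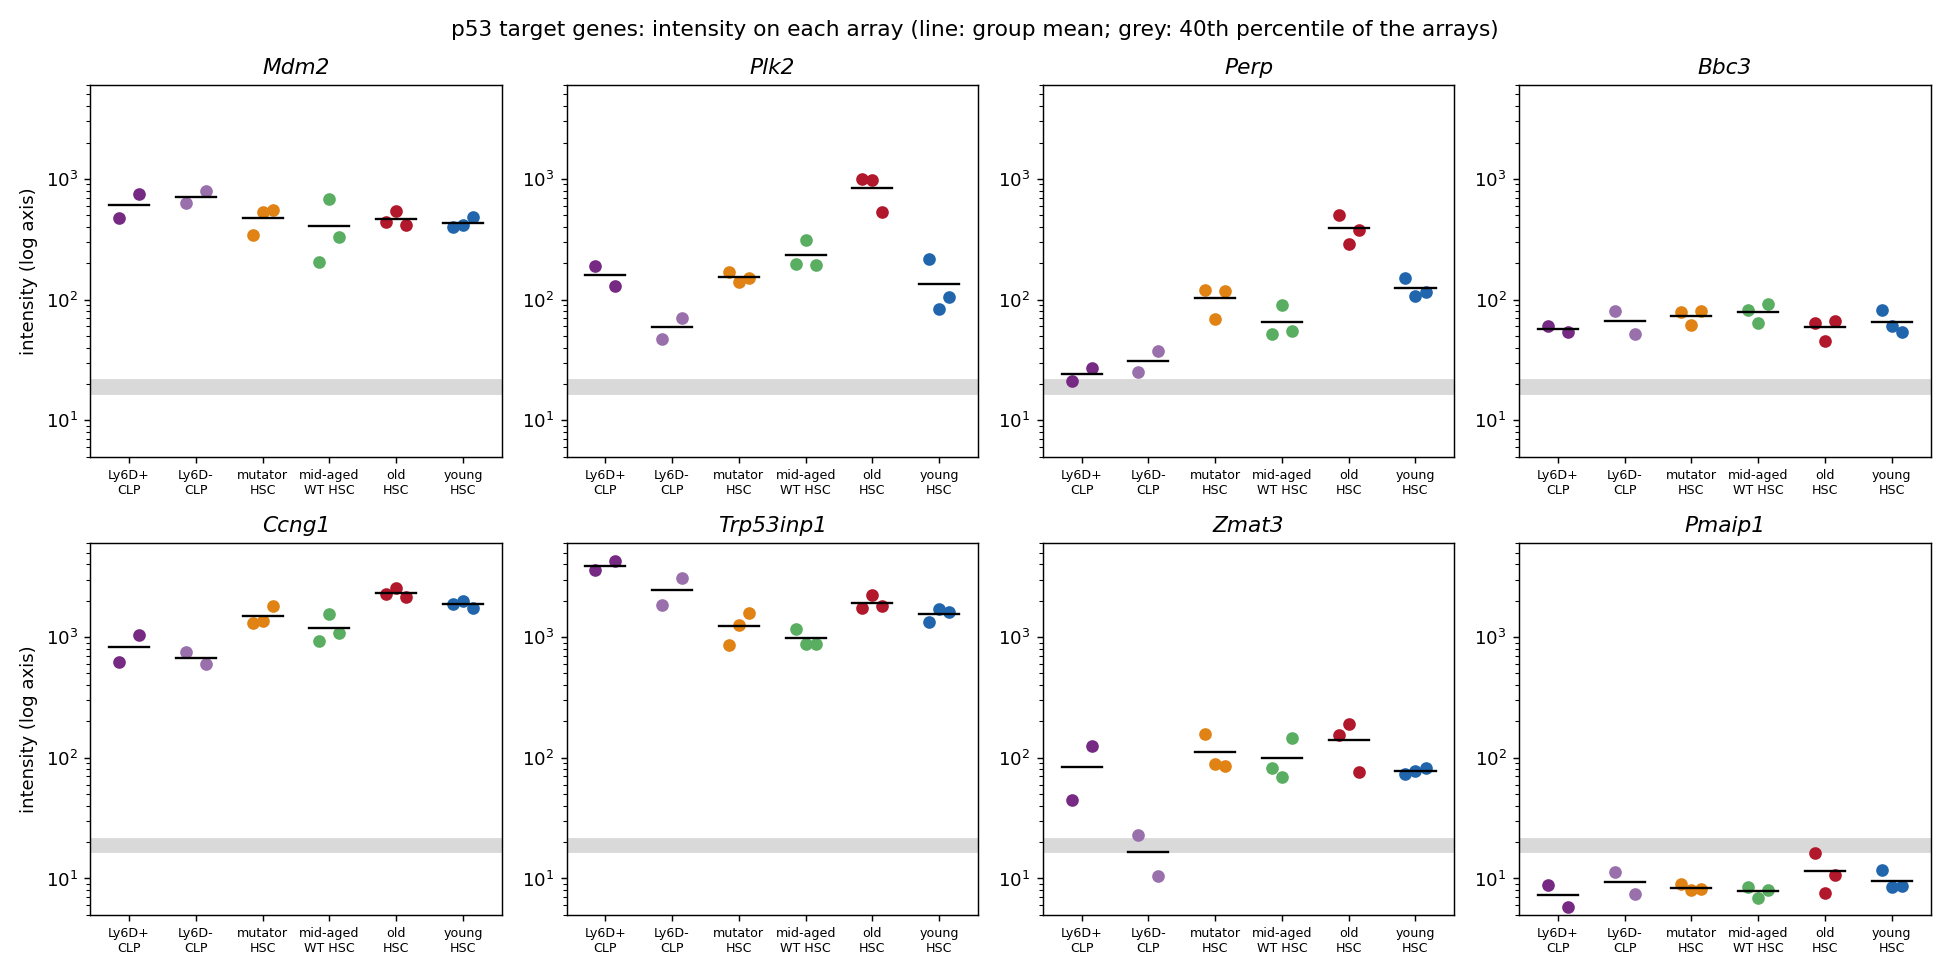
Intensity on a log axis of the 8 p53 target genes on each of 16 arrays, with 1 point per array, a line at each group mean and a grey band over the 40th percentiles of the arrays (16.6 to 21.3). Plk2 and Perp of old HSC lie above every other group, Trp53inp1 is highest in Ly6D+ CLP, and Pmaip1 lies at or under the band throughout.

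Old HSC were compared with young HSC to describe normal ageing. Of the 7 tested targets 2 were called higher in old HSC, Plk2 and Perp, and none was called lower. Over all 13482 genes 1.05% were called higher and 0.252% lower. The other 5 targets, Ccng1, Trp53inp1, Zmat3, Mdm2 and Bbc3, had no call. In sorted but bulk RNA, fewer cells that carry a transcript and less of it per cell cannot be told apart.

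Plk2 (chr13:110395044-110400844) encodes a polo-like kinase first known as a serum-inducible transcript. It gave intensities of 1001.5, 975.4 and 531.0 on the arrays of old HSC, against 217.2, 82.9 and 105.3 on those of young HSC. Every old array lay above every young one, and the lowest old value was also above all values of the other 4 groups. The group means were 836.0 ± 264.4 in old and 135.1 ± 72.0 in young HSC (SD, n = 3 each). The log2 change was 2.54 (SE 0.33, 95% interval 1.82 to 3.27, adjusted p 0.00224). It kept its call with any 1 of the 6 arrays left out, with values between 2.29 and 2.91. A second Plk2 probe set averaged 18.3 in old HSC and 18.9 in young HSC, within the range of the 40th percentiles, and so gave no measure of the change. Averaging it with the first gave 1.26 (adjusted p 0.0111).

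Perp (chr10:18845071-18857073) encodes a membrane protein of cell junctions that also takes part in p53-driven death. It gave 499.0, 287.8 and 378.9 in old HSC, against 150.6, 106.7 and 116.2 in young HSC. The lowest old array was above the highest young array and above every array of the remaining groups. The log2 change was 1.5 (SE 0.262, 95% interval 0.93 to 2.08, adjusted p 0.0141). This call was lost when any of old replicates 1 and 3 and young replicates 2 and 3 was left out, with adjusted p of 0.0622 to 0.0897 and changes of 1.31 to 1.51.

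Among the other death genes, Bbc3 (chr7:16308398-16318334), which encodes the BH3-only protein Puma, had 63.96, 45.4 and 66.5 in old HSC, against 81.5, 60.2 and 54.3 in young HSC. The groups overlapped, and the log2 change was -0.12 (95% interval -0.53 to 0.29). Mdm2 (chr10:117688875-117710758), the inhibitor of p53 and itself a target, had 440.5, 542.1 and 414.4 in old HSC, against 398.0, 411.7 and 481.4 in young HSC. These groups overlapped too, with a change of 0.11 and an interval of -0.64 to 0.85.

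Ccng1 (chr11:40748552-40755309), which encodes cyclin G1, gave 2262, 2555 and 2133 in old HSC, against 1867, 1991 and 1758 in young HSC. Trp53inp1 (chr4:11156441-11174379), a nuclear cofactor of p53 that acts in cell death and autophagy, gave 1729, 2252 and 1816 in old HSC, against 1328, 1706 and 1629 in young HSC. For both genes every old array lay above every young one, but neither passed the test, with changes of 0.30 (SE 0.199, adjusted p 0.899) and 0.31 (SE 0.226, adjusted p 0.959). One dimmer probe set of Ccng1 overlapped between the groups, with a change of -0.03, and another was at 0.78, neither called. Counting Plk2 and Perp, the arrays of old and young HSC did not overlap for 4 of 7 targets, all higher in old, against 14% of all genes higher in this way. Zmat3 (chr3:32334792-32365665), which encodes a zinc-finger protein that binds RNA, had 155.0, 190.5 and 75.7 in old HSC, against 72.8, 77.9 and 82.4 in young HSC. Old replicate 3 lay among the young ones, and the change of 0.66 (SE 0.325, adjusted p 0.635) had an interval of -0.05 to 1.37. The median change of the 7 targets was 0.31, against -0.01 over all genes tested and -0.0 over the 28 further p53 targets described below. The 7 targets were chosen with earlier results of these data known. Their counts and medians beside all genes, here and in the other comparisons, are therefore a description and no test of the set.

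The summed levels of other marker lists also differed between old and young HSC. Immediate early genes, which cells raise within minutes of handling, had a summed intensity of 80606.5, 18601.8 and 15033.7 over 24 genes in old HSC, against 42009.3, 13212.6 and 10854.3 in young HSC. Replicate 1 of both groups was the highest, none of the 24 genes was called, and 22 had a positive change (median 0.48). With replicate 1 of both groups left out, an alternative chosen after seeing the data, Plk2 stood at 2.75 (adjusted p 0.0101) and Perp at 1.44 (adjusted p 0.135). Macrophage markers summed to 202.7 to 269.7 in old HSC and 350.2 to 765.8 in young HSC, with 1 of 9 called lower. Neutrophil markers summed to 180.7 to 1569 in old HSC and 1337 to 5733 in young HSC, with none of 8 called, and megakaryocyte markers to 6461 to 8262 in old HSC and 2503 to 3132 in young HSC, with 2 of 6 called higher. Erythroid markers summed to 194.1 to 310.6 in old HSC and 498.5 to 551.0 in young HSC, with none of 4 called, and mast cell and basophil markers to 53.04 to 59.8 in old HSC and 68.1 to 94.3 in young HSC, with none of 2 called. The sums of HSC markers given above did not overlap either, and 3 of 10 were called higher in old HSC. The 3 prime to 5 prime ratio of actin was lower in old HSC without overlap, as given above. The part of these markers and of RNA quality in the result was not tested.

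**Figure D2:**
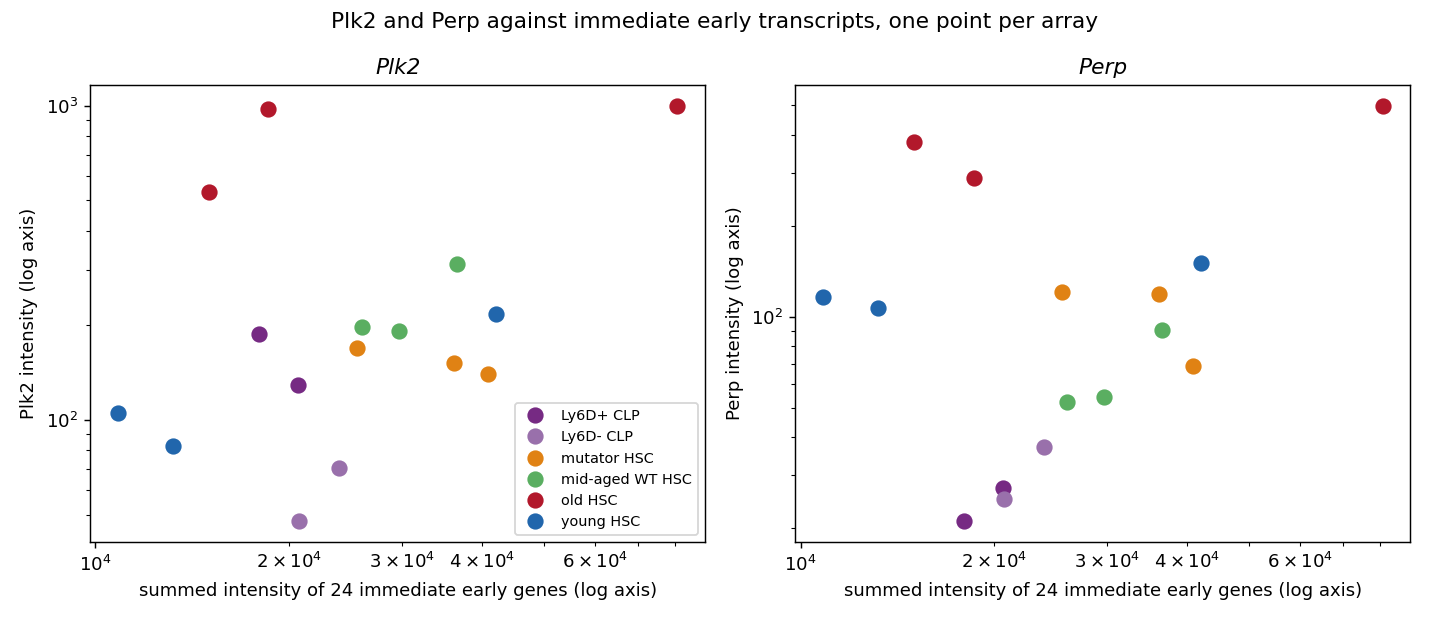
Intensity of Plk2 (left) and Perp (right) against the summed intensity of 24 immediate early genes, both on log axes, with 1 point per array of each group. The old array with the largest immediate early sum (80606.5) has the highest Plk2 and Perp. Among the young arrays the one with the largest sum (42009.3) likewise has the highest Plk2 and Perp. The other 2 old arrays, at 15033.7 and 18601.8, lie above all arrays of the other groups. The part of immediate early induction in these levels was not tested.

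Mutator HSC were compared with mid-aged WT HSC, both of 32 weeks, to see the effect of the Polg genotype. None of the 7 targets was called, and none of the 13482 genes was (0% called with limma, while 984 genes, 7.3%, had an unadjusted p under 0.05). Perp had 120.6, 68.7 and 118.7 in mutator HSC, against 52.2, 90.5 and 54.4 in mid-aged WT HSC. The groups overlapped through mutator replicate 2 and mid-aged WT replicate 2, and the change was 0.54 (SE 0.262, 95% interval -0.04 to 1.11, adjusted p 0.701). Plk2 had 169.2, 139.6 and 152.1 in mutator HSC, against 197.5, 313.2 and 191.9 in mid-aged WT HSC. All 3 mutator arrays lay below the mid-aged WT arrays, against 2.97% of all genes lower in this way, and the change was -0.53 (SE 0.33, interval -1.26 to 0.19, adjusted p 0.792).

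The levels of the remaining targets overlapped between mutator and mid-aged WT HSC. Ccng1 had 1320, 1350 and 1803 in mutator HSC, against 929.0, 1566 and 1073 in mid-aged WT HSC, with a change of 0.34 (interval -0.09 to 0.78). Trp53inp1 had 854.6, 1249.9 and 1589.7 in mutator HSC, against 1176.1, 881.0 and 876.8 in mid-aged WT HSC, with a change of 0.30 (interval -0.20 to 0.79). Arrays of both groups interleaved for either gene.

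Mdm2 averaged 473.8 ± 114.3 in mutator HSC and 405.1 ± 245.8 in mid-aged WT HSC (SD, n = 3 each), where single arrays ran from 204.9 to 679.5. Zmat3 averaged 110.6 ± 39.9 in mutator HSC and 99.5 ± 41.0 in mid-aged WT HSC, and Bbc3 73.7 ± 10.1 in mutator HSC and 79.2 ± 14.4 in mid-aged WT HSC. Changes for these 3 genes were 0.35, 0.15 and -0.08, with adjusted p of 0.894, 0.967 and 0.969. The median of the 7 targets was 0.30, with 5 of 7 positive, against a median of -0.0 over all genes tested. Dimmer probe sets of the same genes differed in direction, at -0.57 and 0.54 for Ccng1 and -0.28 for Mdm2, none called. Without mid-aged WT replicate 3, whose Xist went against its label, no target was called either, and without mid-aged WT replicate 2 the count over all genes was 222, again with no target among them.

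The difference between the mutator change and the old change was tested as 1 contrast, mutator minus mid-aged WT less old minus young. Plk2 differed, at -3.07 (SE 0.467, 95% interval -4.10 to -2.05, adjusted p 0.0148), the 1 call among 7 targets, where 0.512% of all genes were called. The old change of 2.54 was called. The mutator change of -0.53 was not, with an interval of -1.26 to 0.19. Without old replicate 1 or young replicate 3 the adjusted p of the difference was 0.0534 and 0.0564, with values of -2.92 and -2.96. With the near-background second probe set averaged in, it was -1.66 (adjusted p 0.0382). Perp stood at -0.97 (SE 0.37, interval -1.78 to -0.16, adjusted p 0.519) and Zmat3 at -0.52 (interval -1.52 to 0.49), neither called. For Ccng1, Trp53inp1, Bbc3 and Mdm2 the difference lay between -0.01 and 0.25, and the widest of their intervals ran from -0.81 to 1.3, so differences within it were not resolved.

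**Figure D3:**
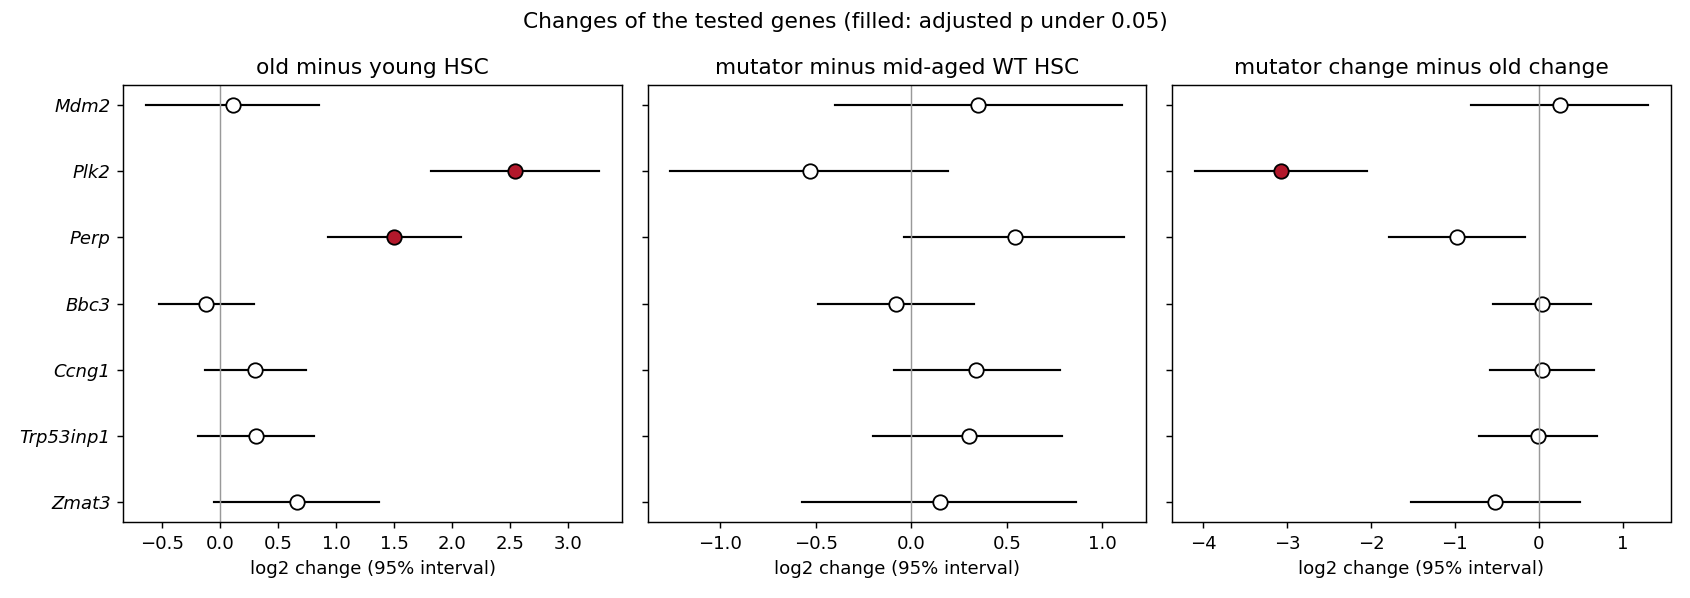
Log2 changes with 95% intervals of the 7 tested p53 targets for old minus young HSC, mutator minus mid-aged WT HSC, and the difference of these 2 changes, with filled points where the adjusted p was under 0.05. Plk2 (2.54) and Perp (1.5) are filled for old minus young, none for mutator minus mid-aged WT, and Plk2 (-3.07) for the difference.

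Mid-aged WT HSC were also set against young HSC, the earlier step of age, with the same young arrays as above. Ccng1 and Perp were called lower in mid-aged WT HSC, 2 of 7, where 17.7% of all 13482 genes were called lower and 6.42% higher. Ccng1 averaged 1189 ± 334 in mid-aged WT HSC and 1872 ± 116 in young HSC (SD, n = 3 each), a change of -0.68 (SE 0.199, adjusted p 0.0286). Perp averaged 65.7 ± 21.5 in mid-aged WT HSC and 124.5 ± 23.1 in young HSC, a change of -0.80 (SE 0.262, adjusted p 0.0451). For both genes every mid-aged WT array lay below every young array, as it did for 25.4% of all genes. Each call held in 1 of the 6 fits with an array left out, the one without mid-aged WT replicate 2, and adjusted p in the other 5 were 0.0638 to 0.0965 for Ccng1 and 0.0734 to 0.149 for Perp.

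Probe sets of Ccng1 disagreed in this comparison. One dimmer probe set had a change of -1.75 (adjusted p 0.0147 over all probe sets) and another 0.27 (adjusted p 0.422). Trp53inp1 was at -0.67 (SE 0.226, adjusted p 0.0523) and was called without mid-aged WT replicate 1 (-0.80, adjusted p 0.0348). Plk2 was at 0.80 (SE 0.33, adjusted p 0.106) and was called without young replicate 1 (1.16, adjusted p 0.0248). Zmat3, Bbc3 and Mdm2 were at 0.25, 0.23 and -0.24. The 3 prime to 5 prime ratios of actin were 4.24 to 5.26 in mid-aged WT HSC and 2.39 to 2.61 in young HSC. Age therefore cannot be told apart in this comparison from RNA quality or from a difference in how the arrays were prepared.

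The CLP arrays extended the targets to cells on the way to lymphocytes. CLP as a whole, the mean of Ly6D+ and Ly6D-, were compared with young HSC over 14344 genes. Perp and Ccng1 were called lower in CLP and Trp53inp1 higher, 3 of 7 targets, where 30.7% of all genes were called, 12.5% higher and 18.2% lower. Perp had 21.1 and 27.2 in Ly6D+ CLP and 25.0 and 37.2 in Ly6D- CLP, with young HSC at 106.7 to 150.6. All 4 CLP arrays lay far below the young ones, and the lowest value, in Ly6D+ replicate 1, was little above the 40th percentile of its array (17.9). The change was -1.69 (SE 0.237, 95% interval -2.20 to -1.18, adjusted p 0.000149).

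Ccng1 had 619.8 and 1047.1 in Ly6D+ CLP and 751.1 and 592.9 in Ly6D- CLP, with young HSC at 1758 to 1991. The change was -1.33 (SE 0.211, adjusted p 0.000392), and all 4 CLP arrays lay below the young ones. Trp53inp1 had 3572 and 4232 in Ly6D+ CLP and 1845 and 3110 in Ly6D- CLP, with young HSC at 1328 to 1706. All 4 CLP arrays were above the young HSC arrays, and the change was 0.97 (SE 0.229, adjusted p 0.00572). The share of all genes whose CLP and young arrays did not overlap is not given here, so the separation does not set these 3 genes apart. Each of the 3 calls held whichever of the 7 arrays was left out. Mdm2 was at 0.58 (interval -0.10 to 1.26), Zmat3 at -0.78 (-1.53 to -0.04), Plk2 at -0.32 (-0.98 to 0.34) and Bbc3 at -0.07 (-0.46 to 0.32), none called. Zmat3 was called without Ly6D+ replicate 2 (-1.09, adjusted p 0.0288), and a second Mdm2 probe set was at 1.12 (adjusted p 0.0271 over all probe sets). All 4 CLP arrays carried the Xist and Eif2s3y levels that go against their label, and their part in these differences was not tested.

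Ly6D+ CLP, which are further along towards B cells, were set against Ly6D- CLP. None of the 7 targets was called, where 2.68% of all genes were. Zmat3 had 44.5 and 124.1 in Ly6D+ CLP, against 22.9 and 10.5 in Ly6D- CLP. The arrays did not overlap, as for 18.9% of all genes with the higher values in Ly6D+ CLP, Ly6D- replicate 2 was below the 40th percentile, and the change was 1.52 (SE 0.453, 95% interval 0.54 to 2.50, adjusted p 0.113). Without Ly6D+ replicate 1 Zmat3 was called, at 2.13 (adjusted p 0.0328). Plk2 had 188.1 and 129.5 in Ly6D+ CLP, against 47.5 and 70.3 in Ly6D- CLP, again without overlap, with a change of 1.22 (SE 0.399, adjusted p 0.154). Trp53inp1 was at 0.69 (SE 0.299, adjusted p 0.334), while a second, dim probe set of the gene was lower in Ly6D+ CLP, at -1.05 (SE 0.215, adjusted p 0.0216 over all probe sets), where it averaged 15.4, under the 40th percentile, against 48.4 in Ly6D- CLP. With 2 arrays a group, the spread rests on all 16 arrays.

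The order of the groups by mean intensity differed from gene to gene. Plk2 ran from old HSC (836.0) over mid-aged WT HSC (234.2), Ly6D+ CLP (158.8), mutator HSC (153.6) and young HSC (135.1) to Ly6D- CLP (58.9). Neighbours overlapped between Ly6D+ CLP, mutator and young HSC and stood apart elsewhere. Perp ran from old HSC (388.6) over young (124.5), mutator (102.6) and mid-aged WT HSC (65.7) to Ly6D- CLP (31.1) and Ly6D+ CLP (24.1), with old HSC apart from the next group and mid-aged WT HSC apart from Ly6D- CLP.

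Ccng1 followed nearly the same order as Perp, from old HSC (2317) to Ly6D- CLP (672.0), and old and young HSC were the neighbours that did not overlap. Trp53inp1 ran from Ly6D+ CLP (3902) over Ly6D- CLP (2477), old HSC (1932), young (1554) and mutator HSC (1231) to mid-aged WT HSC (977.9). No neighbours stood apart for Mdm2, from Ly6D- CLP (713.6) to mid-aged WT HSC (405.1), or for Bbc3, from mid-aged WT HSC (79.2) to Ly6D+ CLP (57.2).

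Profiles over the 12 HSC arrays, each centred on its own mean, were compared by the root mean square of their log2 differences over 12639 genes with official symbols. The genes nearest to Plk2, whose own profile had a root mean square of 1.06, were Ptprk at 0.292, Ripk4 at 0.362 and Mab21l2 at 0.406. Ptprk, a receptor phosphatase gene, averaged 220.8 ± 57.7 in old HSC, 41.1 ± 0.97 in mutator HSC, 56.8 ± 12.5 in mid-aged WT HSC and 34.1 ± 5.11 in young HSC (SD, n = 3 each). In CLP, which the measure did not use, Ptprk lay under the 40th percentile in Ly6D- CLP (15.3), while the arrays of Plk2 in Ly6D+ CLP overlapped those in young HSC.

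The genes nearest to Perp (own value 0.901) were Rprm at 0.235, Eya1 at 0.324 and Serpinb6a at 0.331, and Plk2 was at 0.677 from Perp. Rprm averaged 232.0 ± 34.4 in old HSC, 61.5 ± 7.17 in mutator HSC, 46.1 ± 4.63 in mid-aged WT HSC and 84.6 ± 21.9 in young HSC. Ccng1 (own value 0.418) was nearest to Osbpl1a at 0.0868, Mcur1 at 0.0898 and Cd24a at 0.105, and among the members to Trp53inp1 at 0.277. The likeness is a description without a test.

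**Figure D4:**
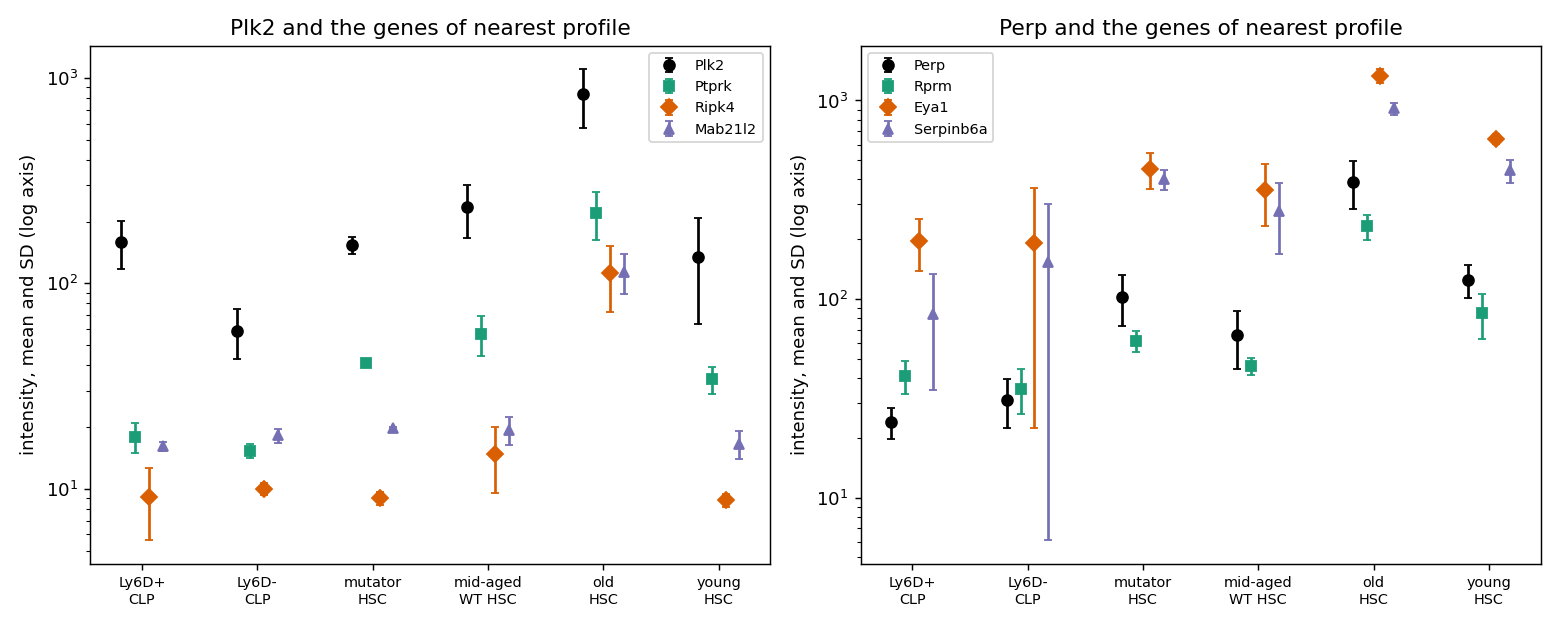
Group mean intensity with SD on a log axis for Plk2 with Ptprk, Ripk4 and Mab21l2 (left) and for Perp with Rprm, Eya1 and Serpinb6a (right), with 3 arrays per HSC group and 2 per CLP group. All 4 genes on each side are highest in old HSC, and Ripk4 and Mab21l2 are at or under background in the other groups.

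The wider p53 pathway was described with further targets (29 of 31 symbols matched) and regulators of p53 (17 of 18 matched). In old against young HSC none of 28 tested further targets was called higher and 1 lower, and 14 had a positive change. Of all 13482 genes 1.05% were called higher and 0.252% lower. The gene called was Siva1, which encodes a death-promoting adaptor, at 612.7, 452.6 and 664.9 in old HSC, against 1027.9, 921.6 and 1047.7 in young HSC. The groups did not overlap, and the change was -0.79 (SE 0.162, adjusted p 0.0403). The share of all genes lower in old HSC without overlap is not given here.

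Of 16 regulators 1 was called lower and none higher, where 0.252% of all genes were called lower and 1.05% higher. Chek1, the checkpoint kinase that acts downstream of Atr, had 396.8, 363.1 and 450.0 in old HSC, against 972.6, 927.2 and 929.6 in young HSC. The change was -1.20 (SE 0.235, adjusted p 0.0312) without overlap, for which again no share of all genes is given. Neither the call of Siva1 nor that of Chek1 held in any of the 6 fits with an array left out, with changes of -0.90 to -0.63 and -1.28 to -1.13. Cdkn1a, which encodes the cell-cycle inhibitor p21, had 274.1, 116.5 and 80.7 in old HSC, against 97.2, 49.9 and 31.4 in young HSC. These arrays overlapped, and its change of 1.13 (SE 0.463, adjusted p 0.446) did not pass. Mdm4, the partner of Mdm2, was at 0.30 and the family member Trp63 at 0.02.

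In mutator against mid-aged WT HSC none of the 28 further targets and none of the 16 regulators was called, nor was any of all 13482 genes. The smallest p values belonged to Gfi1 (1.22, SE 0.477, adjusted p 0.636) and Ei24 (0.58, SE 0.242, adjusted p 0.657) among the targets, and to the kinase gene Atr (1.33, SE 0.444, adjusted p 0.607) among the regulators. Cdkn1a had 166.2, 123.8 and 134.3 in mutator HSC, against 77.1, 85.9 and 234.5 in mid-aged WT HSC. The highest value lay in mid-aged WT replicate 3, and the change was 0.23 (SE 0.463). Polg itself was at -0.47 (SE 0.204, adjusted p 0.663).

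In mid-aged WT against young HSC 3 further targets were called higher and 6 lower of 28, and 1 regulator higher and 6 lower of 16, where 6.42% of all genes were called higher and 17.7% lower. Gadd45a, a stress-response gene, averaged 19.5 ± 0.722 in mid-aged WT HSC, near the 40th percentile, and 174.6 ± 42.5 in young HSC (SD, n = 3 each). Its change was -2.40 (SE 0.215, adjusted p 0.000126), and Ei24 was at -1.39 and the regulator Trp53bp2 at -1.63. All 3 calls held in the 6 fits with an array left out. The calls of Rrm2b (-0.46), Hipk2 (-1.32) and Atr (-1.97) turned to 0.03, 0.03 and 0.04 when all probe sets of a gene were averaged. Trp53i11 (0.72) and Chek1 (-0.83) both lost their calls without young replicate 2 or 3 or mid-aged WT replicate 1 or 3, and Chek1 also without young replicate 1. Rrm2b lost its call without young replicate 2 or 3. Of the 24 immediate early genes, Ppp1r15a (2.49) and Jund (1.36) were called higher in mid-aged WT HSC and none lower, and Jund lost its call when young replicate 2 or 3 or mid-aged WT replicate 1 or 3 was omitted. These changes share the difference in RNA quality given above.

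In CLP against young HSC 9 further targets were called higher and 7 lower of 29, where 12.5% of all genes were called higher and 18.2% lower. Ndn, the growth suppressor necdin of quiescent stem cells, averaged 87.4 ± 15.6 in Ly6D+ CLP and 84.6 ± 19.4 in Ly6D- CLP (SD, n = 2 each), and 1392 ± 185 in young HSC (n = 3), a change of -3.79 (SE 0.162, adjusted p 2.24e-09). Xpc, which recognises damage in nucleotide excision repair, averaged 1935 ± 143 in Ly6D+ CLP and 2064 ± 49.95 in Ly6D- CLP, and 338.4 ± 11.4 in young HSC, a change of 2.51 (SE 0.228). Trp53i11 was at 1.78 and Gadd45a at -2.20. Of 16 regulators 5 were called lower and none higher, among them the deacetylase gene Sirt1 (-1.51), Trp53bp2 (-1.18), Hipk2 (-1.10) and Trp53bp1 (-0.70). With all probe sets averaged, Hipk2 and Trp53bp1 turned to 0.20 and 0.16. Hipk2 was not called without young replicate 2, nor Trp53bp1 without young replicate 2 or 3, Ly6D+ replicate 1 or Ly6D- replicate 1.

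Cdkn1a had 929.3 and 1074 in Ly6D+ CLP and 136.3 and 219.7 in Ly6D- CLP, against 31.4 to 97.2 in young HSC. It was called higher in CLP than in young HSC (2.63, SE 0.417, adjusted p 0.000389). Between Ly6D+ and Ly6D- CLP the change was 2.42 (SE 0.546, adjusted p 0.0333). This was 1 of 2 calls among 29 further targets, where 2.68% of all 14344 genes were called. The other was Pidd1, which encodes a death-domain adaptor, at 0.85 (SE 0.199, adjusted p 0.0391). The call of Cdkn1a in this comparison was lost in all 4 fits with an array left out (2.11 to 2.74), and that of Pidd1 without Ly6D+ replicate 2 (0.63) or Ly6D- replicate 1 (0.62). None of 16 regulators was called between Ly6D+ and Ly6D- CLP.

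**Figure D5:**
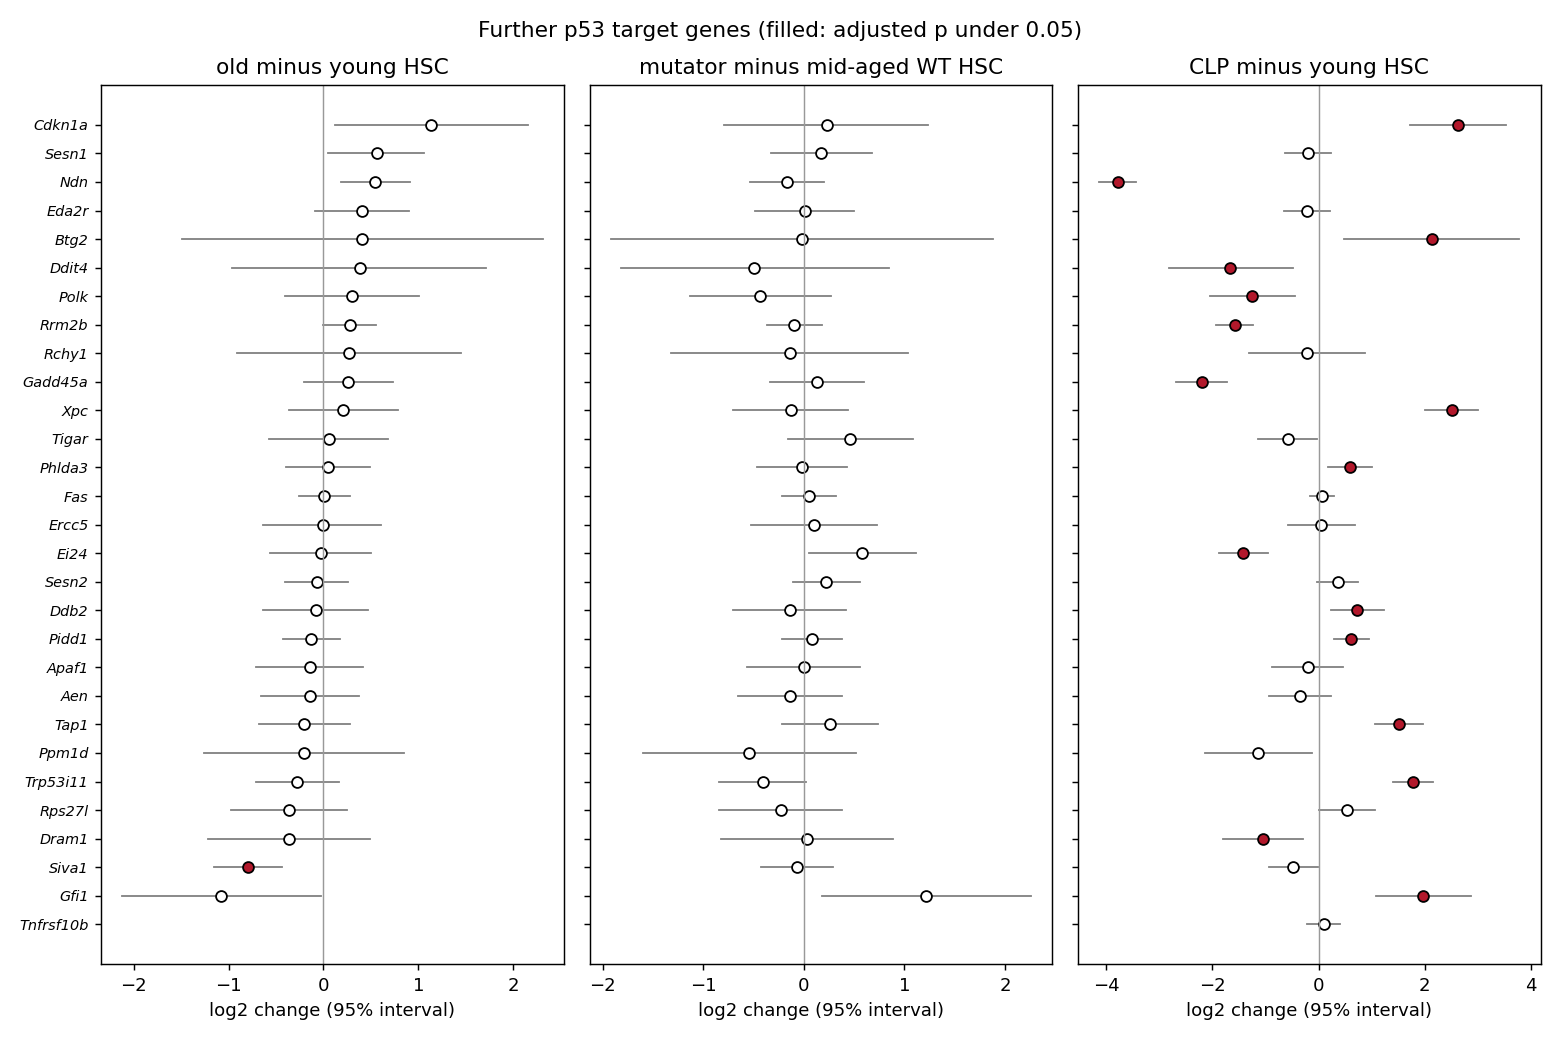
Log2 changes with 95% intervals of the further p53 target genes for old minus young HSC (28 tested), mutator minus mid-aged WT HSC (28 tested) and CLP minus young HSC (29 tested), with filled points where the adjusted p was under 0.05. Siva1 alone is filled for old minus young, none for mutator minus mid-aged WT, and 16 genes for CLP minus young HSC.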

How the data were processed

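RNA of 16 samples was measured on Affymetrix mouse arrays, from total RNA and biotinylated cRNA per the labels' protocols. The deposited values are probe set intensities on a linear scale for 45101 probe sets, and how the authors summarised, background-corrected and normalized them is not given in the sources used here. No value column was left out. Genes were named through the platform annotation, in which 34958 probe sets carry 1 symbol, 932 several and 9211 none. Array medians ran from 24.6 to 29.8.

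Values were taken as log2(intensity + 16). A gene was represented by its probe set of highest mean over 16 arrays. It was tested where that probe set exceeded the 40th percentile of the array on at least 3 of 12 HSC arrays (13482 genes) or 2 of 16 arrays (14344 genes). Tests used lmFit and eBayes of limma 3.58.1 (R 4.3.3) on a model of group means, and p-values were adjusted by Benjamini-Hochberg over all genes tested. HSC comparisons used the 12-array fit, CLP comparisons the 16-array fit. The scripts were tested on simulated data. Loci are from RefSeq, GRCm38.p6.

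The members, gene lists and tests were chosen with earlier results of these data known. All members were named. From each pathway list up to 4 called genes of smallest adjusted p were named per comparison, or 2 as values where none passed, besides Cdkn1a, Mdm4 and Polg, and not every one is printed. For each member called in HSC the 3 genes of nearest profile were named.

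The alternatives tried were median centring, quantile normalization, a 60th percentile filter or none, averaging or separately testing all probe sets, array weights, robust eBayes with a trend, pseudocounts of 1 and 64, a replicate block, leaving out each array, only the groups compared, and all 16 arrays. Added after seeing the data were young replicates 2 and 3 counted as 1, and old and young replicate 1 both left out.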

Additional observations from a re-analysis of the deposited data

Results flagged for a closer look

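The change of Plk2 with the Polg genotype differed from its change with age. Old minus young HSC gave 2.54 on the log2 scale. Mutator minus mid-aged WT HSC gave -0.53, which was not called (interval -1.26 to 0.19). The difference of -3.07 (SE 0.467) passed the limma contrast with an adjusted p of 0.0148. It kept its sign in each of the 12 fits that left out 1 array, between -3.44 and -2.82, and stayed past the threshold in 10 of them. It did not pass without old replicate 1 (adjusted p 0.0534) or young replicate 3 (0.0564). No other tested target met this criterion, and outlying arrays were not tested for, since that needs at least 4 arrays in a group.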

How the results depend on the processing

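Plk2 in old against young HSC kept its call and direction in every alternative run, read from its brighter probe set or from the average of both. Tested separately, the near-background second probe set was at -0.03 and was not called. The number of targets called was 2 in old against young HSC, and it was 1 with young replicates 2 and 3 merged, 1 with replicate 1 of both groups left out, and 1 to 2 with 1 array left out. In mid-aged WT against young HSC it was 2, and it was 3 with median centring, 3 with a filter at the 60th percentile, 0 with quantile normalization, 1 without a filter, 1 with eBayes trend and robust, 1 with a pseudocount of 64, 1 with a replicate block, 0 with only the groups compared, 1 with all 16 arrays, 0 with young replicates 2 and 3 merged, and 0 to 2 with 1 array left out. For the mutator change minus the old change it was 1, and it was 2 with array weights (Perp -1.45, adjusted p 0.0431) and 0 to 1 with 1 array left out. For Ly6D+ against Ly6D- CLP it was 0, and it was 1 with every probe set tested, 1 with a pseudocount of 1, and 0 to 1 with 1 array left out. For CLP against young HSC it was 3, and it was 4 with all probe sets averaged, 4 with every probe set tested, 4 with a pseudocount of 1 and 3 to 4 with 1 array left out. It stayed at 0 in mutator against mid-aged WT HSC in every alternative.

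Some changes turned sign. With all probe sets averaged, Mdm2 was 0.04 in mid-aged WT against young HSC, -0.07 in the difference of changes and 0.10 in Ly6D+ against Ly6D- CLP. In the same setting Rrm2b was 0.03, Hipk2 0.03 and Atr 0.04 in mid-aged WT against young HSC, Ccng1 -0.25 and Trp53inp1 0.02 in the difference of changes, Trp53inp1 -0.18 in Ly6D+ against Ly6D- CLP, and Hipk2 0.20 and Trp53bp1 0.16 in CLP against young HSC. With array weights Bbc3 was 0.04 in old against young HSC and 0.04 in CLP against young HSC, Zmat3 -0.25 in mutator against mid-aged WT HSC, and Bbc3 -0.32, Ccng1 -0.03 and Trp53inp1 0.28 in the difference of changes. With quantile normalization Mdm2 was 0.05 in mid-aged WT against young HSC, Bbc3 0.01 in CLP against young HSC and Ccng1 -0.000555 in the difference of changes. With replicate 1 of old and young HSC left out, Bbc3 was -0.04 and Trp53inp1 0.02 in the difference of changes.

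Leaving out 1 array gave ranges that crossed 0. In old against young HSC they were -0.01 to 0.19 for Mdm2 and -0.22 to 0.02 for Bbc3. In mutator against mid-aged WT HSC they were -0.03 to 0.79 for Mdm2, -0.20 to 0.02 for Bbc3 and -0.10 to 0.42 for Zmat3. In mid-aged WT against young HSC they were -0.68 to 0.14 for Mdm2 and -0.03 to 0.43 for Zmat3. In the difference of changes they were -0.14 to 0.69 for Mdm2, -0.10 to 0.14 for Bbc3, -0.12 to 0.25 for Ccng1 and -0.22 to 0.22 for Trp53inp1. In Ly6D+ against Ly6D- CLP they were -0.56 to 0.07 for Mdm2, -0.40 to 0.11 for Bbc3 and -0.10 to 0.64 for Ccng1. In CLP against young HSC they were -0.57 to 0.04 for Plk2 and -0.20 to 0.07 for Bbc3. The cause of these reversals was not tested.

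The count of all genes called in old against young HSC was 176, and it was 1879 with array weights, 1007 with only the groups compared, 88 to 114 with 1 array left out, 93 with young replicates 2 and 3 merged and 49 with replicate 1 of both groups left out. In mutator against mid-aged WT HSC it was 0, and it was 0 to 222 with 1 array left out. In mid-aged WT against young HSC it was 3258, and it was 5569 with every probe set, 2031 with young replicates 2 and 3 merged and 2043 to 4161 with 1 array left out. For the difference of changes it was 69, and it was 483 with array weights, 38 with young replicates 2 and 3 merged, 15 with replicate 1 of both groups left out and 26 to 148 with 1 array left out. In Ly6D+ against Ly6D- CLP it was 384, and it was 659 with every probe set, 105 with array weights, 0 with only the groups compared and 307 to 752 with 1 array left out. In CLP against young HSC it was 4404, and it was 6912 with every probe set.

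The main tests did not pair samples by the replicate numbers in their titles. Deviations of same-numbered old and young arrays correlated at 0.509, 0.422 and -0.0119, and those of mutator and mid-aged WT arrays at 0.329, 0.0772 and -0.0623. These values do not settle whether same-numbered arrays belong together. With a replicate block the genes called numbered 172 in old against young HSC, 0 in mutator against mid-aged WT HSC and 3395 in mid-aged WT against young HSC, and Perp missed the threshold in the last (adjusted p 0.0514). With 2 or 3 arrays a group, changes of dim genes such as Pmaip1 are not resolved.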
